A study of Mus musculus with 13 samples.

Results

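A set of 8 genes that restrain axon growth, within neurons or in response to myelin, was followed through RNA-seq libraries of Thy1.2-positive cells of mouse retina. The labels call these cells retinal ganglion cells (RGCs), the neurons whose axons form the optic nerve, but markers of other cells exceeded those of RGCs in the P14, P21 and injury libraries. They were 8 of the 52550 genes in the count table: Rtn4, Rtn4r, Lingo1, Rhoa, Tsc1, Tsc2, Pias3 and Rabgef1, each found by its Ensembl gene ID. Of these, 6 are known repressors of axon growth, set together with earlier results of these data known. Pias3 and Rabgef1 were taken because the study names them from its comparison of AAV2-Cre with AAV2-GFP, so their values in that comparison are a description without a test. The study also reports both as lower by real-time PCR in RGCs lacking Kdm6a after optic nerve crush, a measurement not used here. In all, 13 libraries of cells sorted by flow cytometry formed 2 datasets. The injury dataset held 2 libraries labelled AAV2-Cre and 3 labelled AAV2-GFP, all from retinas labelled P42 (postnatal day 42) and collected 3 days after optic nerve crush. Mice of both these groups were Kdm6a f/f, in which loxP sites surround an exon of the histone demethylase gene Kdm6a (also called UTX), and an AAV2 vector injected into the eye delivered Cre recombinase or GFP. The development dataset held uninjured wild-type retinas at P1 (3 libraries), P14 (3 libraries) and P21 (2 libraries). How many animals went into a library, and which retinal cells besides RGCs received Cre, is not given in the sources used here, so p-values measure the spread between these libraries.

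Myelin debris and oligodendrocytes carry Nogo (the product of Rtn4), MAG and OMgp (the product of Omg), which bind the Nogo receptor encoded by Rtn4r on the axon. That receptor has no part inside the cell and signals through partners such as Lingo1 and the neurotrophin receptor Ngfr or its relative Tnfrsf19, which activate the small GTPase RhoA and collapse the growth cone. Within the neuron, Tsc1 and Tsc2 form the complex that holds back mTORC1, the kinase complex that drives protein synthesis, while Pias3 is a SUMO ligase that inhibits the transcription factor STAT3 and Rabgef1 (Rabex-5) activates Rab5, the GTPase of early endosomes.

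Levels were given as CPM, the counts of a gene relative to the total of its library, after TMM scaling over all 13 libraries. Total counts ran from 13637602 to 16070720 in the 5 injury libraries and from 30357454 to 38812917 in the 8 development libraries. The 14 ganglion cell markers took 0.0341 to 0.0419% of all counts in AAV2-Cre and 0.0363 to 0.0433% in AAV2-GFP libraries, against 0.935 to 1.02% at P1, 0.133 to 0.152% at P14 and 0.0484 to 0.0874% at P21. Of these markers, 12 of 14 had a count in every AAV2-Cre library and 12 in every AAV2-GFP library, against all 14 in every development library, and Pou4f2, which defines RGCs, was at 0 in both AAV2-Cre libraries and in 2 of 3 AAV2-GFP libraries. The P21 libraries stood apart from each other, with 24.3 and 1.13 CPM of the RGC transcription factor Pou4f1. Rod markers took 1.34 and 2.87% of counts in AAV2-Cre and 2.99 to 3.51% in AAV2-GFP libraries, against at most 0.130% in development libraries. Müller glia markers took 0.503 and 0.760% in AAV2-Cre and 0.342 to 0.611% in AAV2-GFP libraries, against 0.216 to 0.581% at P1, 2.13 to 2.26% at P14 and 3.94 to 4.16% at P21. B cell markers took 1.53 and 1.80% in AAV2-Cre and 0.301 to 1.00% in AAV2-GFP libraries. In these bulk libraries, fewer cells of a type and less RNA per cell cannot be told apart. The targeted gene Kdm6a had 110.4 and 112 CPM in AAV2-Cre libraries, against 115, 96.5 and 119 CPM in AAV2-GFP libraries (log2 fold change -0.02 ± 0.15 SE). Counts over the whole gene do not isolate the exon between the loxP sites, so this value does not check the labels. By the study's real-time PCR and immunostaining, RGCs given AAV2-Cre in Kdm6a f/f mice had less Kdm6a mRNA and protein, measurements not used here.

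The promoters of 4 genes are shown because Rtn4r and Lingo1 fell together with age and Pias3 and Rabgef1 were both lower in AAV2-Cre libraries. Each runs from 250 bases before to 50 after a RefSeq start (GRCm38.p6), 5′ to 3′ on the gene's strand, and the start nearest the GENCODE gene start was used. Capitals mark GC boxes, the motif GGGCGG or its reverse complement CCGCCC, with overlapping matches counted.
Rtn4r: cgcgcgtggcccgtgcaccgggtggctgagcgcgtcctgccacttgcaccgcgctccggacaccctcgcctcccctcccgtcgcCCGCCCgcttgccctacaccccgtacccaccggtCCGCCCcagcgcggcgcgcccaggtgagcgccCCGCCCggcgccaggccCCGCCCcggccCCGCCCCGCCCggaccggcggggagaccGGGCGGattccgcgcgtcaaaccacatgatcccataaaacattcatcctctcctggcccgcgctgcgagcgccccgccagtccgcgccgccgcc
Lingo1: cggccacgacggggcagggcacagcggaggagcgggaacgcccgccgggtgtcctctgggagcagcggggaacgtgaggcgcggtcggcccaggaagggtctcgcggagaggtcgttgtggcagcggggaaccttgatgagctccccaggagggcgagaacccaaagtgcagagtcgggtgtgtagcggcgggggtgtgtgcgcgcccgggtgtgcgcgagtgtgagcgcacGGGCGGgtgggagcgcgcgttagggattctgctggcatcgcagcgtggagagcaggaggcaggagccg
Pias3: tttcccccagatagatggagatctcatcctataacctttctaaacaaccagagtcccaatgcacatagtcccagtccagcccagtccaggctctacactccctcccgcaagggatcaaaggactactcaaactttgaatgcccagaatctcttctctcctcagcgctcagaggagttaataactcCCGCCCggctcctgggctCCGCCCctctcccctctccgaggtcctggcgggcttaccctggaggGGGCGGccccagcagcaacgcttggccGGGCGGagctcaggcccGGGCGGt
Rabgef1: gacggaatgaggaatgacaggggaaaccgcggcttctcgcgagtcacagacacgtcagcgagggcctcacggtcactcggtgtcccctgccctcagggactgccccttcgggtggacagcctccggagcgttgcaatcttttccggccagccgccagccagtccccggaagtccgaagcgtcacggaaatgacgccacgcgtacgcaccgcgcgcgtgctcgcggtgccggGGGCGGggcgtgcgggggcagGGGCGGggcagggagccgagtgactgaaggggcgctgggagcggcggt
The Rtn4r window (chr16:18127392-18127691, plus strand) held 7 GC boxes and 47 CpG dinucleotides, and the Lingo1 window (chr9:56796261-56796560, minus strand) held 1 GC box and 35 CpGs. The Pias3 window (chr3:96696125-96696424, plus strand) held 5 GC boxes and 13 CpGs, and the Rabgef1 window (chr5:130171569-130171868, plus strand) held 2 GC boxes and 37 CpGs. Among 32851 promoters of the same length, 35.7% held a GC box and the median CpG count was 7. The Rtn4 window held 4 GC boxes, while those of Rhoa, Tsc1 and Tsc2 held 0.

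In all, 7 of the 8 genes were called at P14 against P1, where 67.1% of all 20890 genes tested were called (edgeR's quasi-likelihood test, Benjamini-Hochberg adjusted p under 0.05). Of these, 3 were higher and 4 lower, beside 33.6% and 33.6% of all genes, with a median log2 fold change of -0.12 over the 8 genes and -0.01 over all genes. At P21 against P14, 5 of 8 were called (2 higher, 3 lower), beside 33.8% of all genes (14.6% higher, 19.3% lower). At P21 against P1 all 8 were called (4 higher, 4 lower), beside 67.6% of all genes (34.1% higher, 33.6% lower), and 3 of these calls (Tsc2, Pias3 and Rabgef1) were lost without P21 replicate 2. These 3 comparisons share libraries, and the counts say little about 8 genes against such a background, so the genes are described singly.

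**Figure D1:**
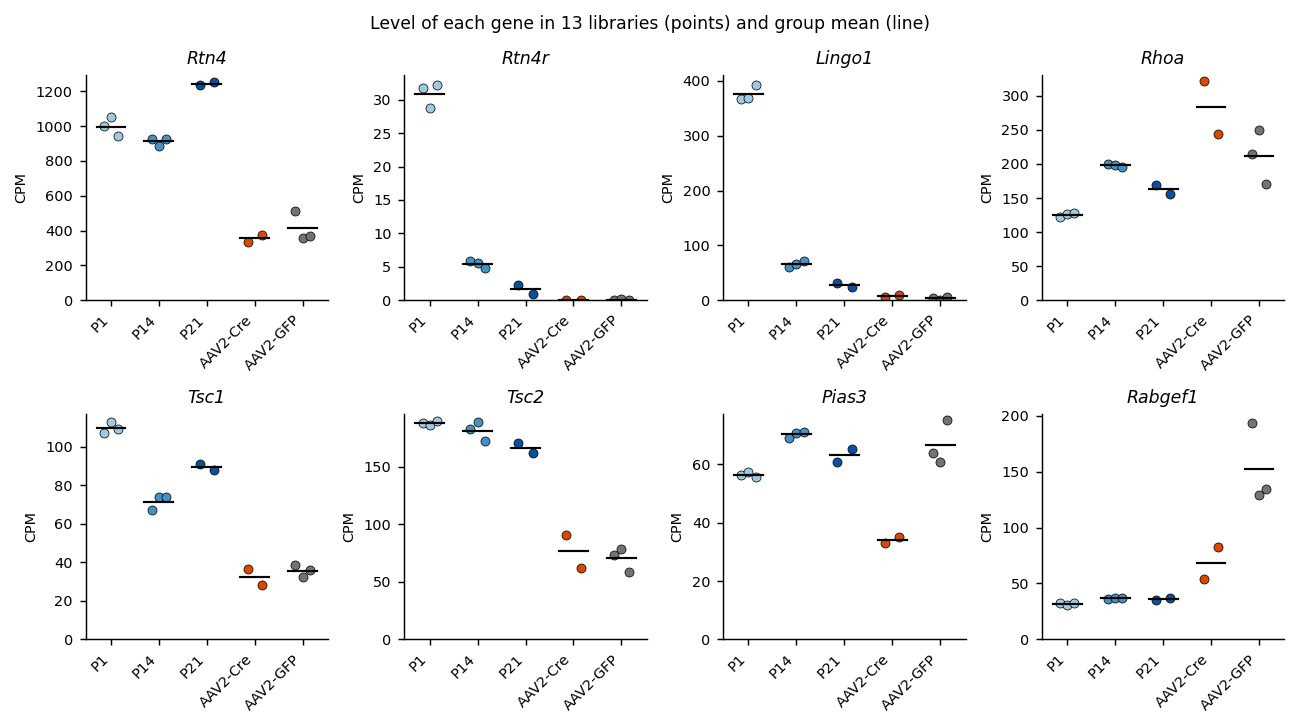
Level of each gene (CPM, vertical axes from 0) in P1, P14, P21, AAV2-Cre and AAV2-GFP libraries; points are libraries and lines are group means. Rtn4r and Lingo1 were highest in the P1 libraries, at 30.9 and 376 CPM on average, while Rabgef1 was highest in the AAV2-GFP libraries, at 152 CPM.

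Rtn4 (chr11:29692947-29744331, plus strand, GRCm38), the source of Nogo, was the most abundant of the 8 genes in every group, by CPM and per kilobase of exon. Its level was 998, 1050.1 and 941 CPM in P1 libraries, 927, 886 and 925 CPM in P14 libraries, and 1237 and 1250.3 CPM in P21 libraries. The 3 ages did not overlap. Rtn4 fell by 0.16 ± 0.05 (SE) on the log2 scale at P14 against P1 (edgeR adjusted p = 0.0220), a call lost without scaling and without P1 replicate 1, P1 replicate 2 or P14 replicate 2, and was 0.50 ± 0.06 higher at P21 against P14 (edgeR adjusted p = 0.000188). Its AAV2-Cre libraries had 337 and 377 CPM, against 514, 359 and 368 CPM in AAV2-GFP libraries, and the 2 groups overlapped (log2 fold change -0.25 ± 0.18 SE, edgeR adjusted p = 0.551). Reads were counted per gene, so the Nogo isoforms cannot be told apart. Of the exon bases of Rtn4, 18.4% overlap exons of Eml6 on the opposite strand, and the library kit does not mark strand.

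Rtn4r (chr16:18127642-18152408, plus strand), the Nogo receptor, was highest in the youngest libraries. It had 31.8, 28.8 and 32.2 CPM in P1 libraries, 5.93, 5.49 and 4.80 CPM in P14 libraries, and 2.24 and 0.950 CPM in P21 libraries, with no overlap between ages. Its level fell by 2.54 ± 0.19 (SE) on the log2 scale at P14 against P1 (edgeR adjusted p = 1.1e-06) and by 1.69 ± 0.26 at P21 against P14 (edgeR adjusted p = 0.000978). At P21 against P14 the log2 fold change was -2.44 without P21 replicate 1 and -1.24 without P21 replicate 2, and the net log2 fold change at P21 against P1 was -4.23, or -5.02 and -3.78 without the same libraries. Both AAV2-Cre libraries had 0 counts, which allows up to 0.216 and 0.187 CPM (3 counts, unscaled), and the AAV2-GFP libraries had 0, 2 and 0 counts. Rtn4r did not pass the low-count filter there, so no fold change or test was computed between AAV2-Cre and AAV2-GFP libraries.

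Lingo1 (chr9:56618475-56796468, minus strand), the co-receptor, took the same course. It had 367, 369 and 392 CPM in P1 libraries, 60.1, 65.5 and 71.1 CPM in P14 libraries, and 30.7 and 23.8 CPM in P21 libraries. The fall was 2.55 ± 0.09 (SE) log2 units at P14 against P1 (log2 fold change -2.55, edgeR adjusted p = 1.2e-08) and a further log2 fold change of -1.21 ± 0.10 at P21 against P14 (edgeR adjusted p = 3.2e-05). The injury libraries were lower than any development library, at 5.66 and 9.52 CPM in AAV2-Cre and 3.59, 0.544 and 5.78 CPM in AAV2-GFP libraries. These groups overlapped and did not pass the test (log2 fold change 1.17 ± 0.75 SE, edgeR adjusted p = 0.493), with 78 and 149 counts in AAV2-Cre libraries and 50, 9 and 96 counts in AAV2-GFP libraries.

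The falls of Rtn4r and Lingo1 with age moved with the ganglion cell markers, of which 12 of 14 were lower and 2 higher at P14 against P1. As a description added after seeing the data, counts were expressed per 1000 counts of the 14 markers. On that scale Rtn4r had 3.01 ± 0.115 at P1, 3.86 ± 0.636 at P14 and 2.28 ± 0.396 at P21 (SD, n = 3, 3 and 2), and Lingo1 had 36.6 ± 0.859, 46.5 ± 1.03 and 42.6 ± 10.7 at the same ages. Thus the order of ages seen in CPM was not kept. For Lingo1 the P21 libraries, at 35.1 and 50.2, lay on either side of all P14 libraries. Without Tubb3, the most abundant marker at P1, Rtn4r had 3.84, 4.33 and 2.56 and Lingo1 46.7, 52.2 and 47.2 at P1, P14 and P21. Without Isl1, the most abundant marker at P14 and P21, Rtn4r had 3.08, 4.83 and 3.11 and Lingo1 37.4, 58.1 and 59.975 at these ages. By contrast, Rtn4 had 97.3 ± 10.4, 649 ± 44.4 and 2025 ± 864 at these ages on the marker scale, and Rhoa had 12.2 ± 0.639, 141 ± 9.93 and 262 ± 96.5. In the injury libraries Lingo1 had 13.4 and 27.2 per 1000 marker counts in AAV2-Cre and 8.47, 1.40 and 16.8 in AAV2-GFP libraries, below every development library. Without Isl1 these ranges were 14.6 to 31.2 and 1.85 to 22.0, against at least 36.8 in development libraries. However, the makeup of the marker sum differed. Nefl had 147 to 186 CPM and Sncg 1.26 to 1.99 CPM in injury libraries, against 1133 to 1237 and 897 to 1053 CPM at P1. The makeup also changed with age. Pou4f1 had 650 to 681 CPM at P1 and 19.9 to 34.9 CPM at P14, while Isl1 had 227 to 240 and 272 to 291 CPM in the same order. Values on this scale are therefore not levels per ganglion cell that can be compared between ages or between the datasets. The part of cell composition in the falls with age and in the injury levels was not tested.

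**Figure D2:**
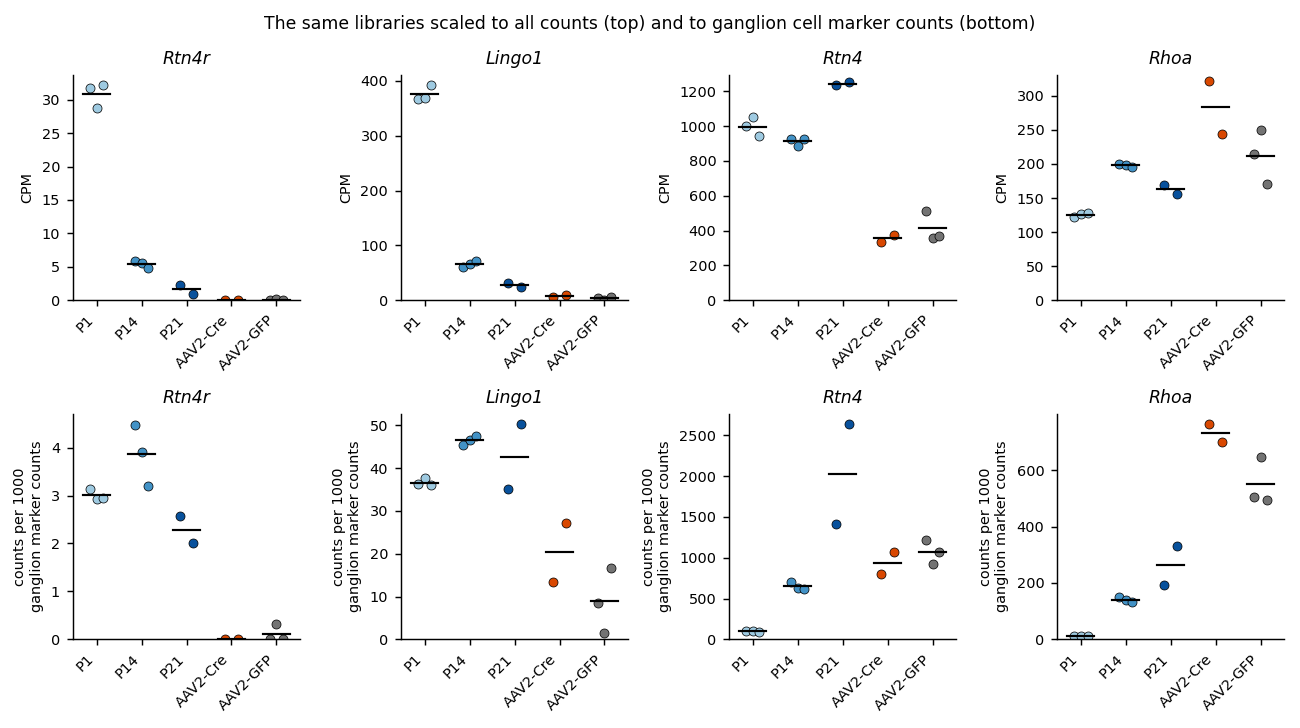
Rtn4r, Lingo1, Rtn4 and Rhoa in the 5 groups as CPM (top row) and as counts per 1000 ganglion cell marker counts (bottom row); points are libraries and lines group means. Lingo1 fell from age to age in CPM but lay between 35.1 and 50.2 in all 8 development libraries on the marker scale, while Rtn4 and Rhoa were lowest at P1 on that scale.

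The genes most like Rtn4r in pattern over the 5 groups were Sncg, Rbpms and Uchl1, with root mean square differences of 0.33, 0.49 and 0.52 log2 units among 11135 candidates, and Sncg and Rbpms are themselves ganglion cell markers used above. For Lingo1 they were Caln1, Rbpms2 and Map3k9 (0.41, 0.43 and 0.43 log2 units), of which 0 are on the marker list. Sncg, for example, averaged 968, 113 and 40.3 CPM at P1, P14 and P21, 1.62 CPM in AAV2-Cre and 1.52 CPM in AAV2-GFP libraries. Rtn4r itself had 0 counts in both AAV2-Cre libraries and 0, 2 and 0 counts in AAV2-GFP libraries. Its group means there were set largely by the small count added before taking logs. Its mean log2 CPM was 0.19, below the minimum of 3 asked of candidates, so its likeness rests in part on values at the floor. The nearest genes of Rtn4 included Mdc1 and Epha4, and those of Rhoa were Uqcc3, Klhl25 and Smim20.

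Rhoa (chr9:108306129-108337934, plus strand), the GTPase on which these receptors converge, had its lowest level at P1. It had 122, 127 and 127 CPM in P1 libraries, 199.6, 199 and 196 CPM in P14 libraries, and 169.5 and 157 CPM in P21 libraries. It was 0.63 ± 0.05 (SE) log2 units higher at P14 against P1 (edgeR adjusted p = 1.0e-06), with a log2 fold change of -0.22 ± 0.05 at P21 against P14 (edgeR adjusted p = 0.00779, and 0.0512 without P21 replicate 2). AAV2-Cre libraries had 321 and 245 CPM, against 215, 250.3 and 170.5 CPM in AAV2-GFP libraries, which overlapped (log2 fold change 0.38 ± 0.20 SE, edgeR adjusted p = 0.408). Of its exon bases, 4.75% overlap Tcta and Gm37401 on the opposite strand.

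The other ligands and receptors of the pathway did not share one direction. Omg was higher at P14 against P1 (log2 fold change 2.19, edgeR adjusted p = 8.0e-06), with 12.06, 11.96 and 6.04 CPM in P1 libraries, 47.8, 47.8 and 44.2 CPM in P14 libraries, and 72.4 and 80.0 CPM in P21 libraries. Müller glia markers moved with it, with 10 of 10 higher at P14 against P1, and P1 replicate 3 was lowest in both Omg and these markers (0.216% of counts, against 0.543 and 0.581% in the other P1 libraries), whose part in the Omg level was not tested. Mag was lower at P14 against P1 (log2 fold change -1.74, edgeR adjusted p = 0.0290). It had 4.86 and 5.82 CPM in AAV2-Cre and 4.09, 5.08 and 5.84 CPM in AAV2-GFP libraries, against at most 3.31 CPM in development libraries. Of the 10 receptor genes, 5 were higher and 5 lower at P14 against P1, beside 33.6% of all genes in each direction. Ngfr, a signalling partner of the Nogo receptor, averaged 73.4, 112 and 165 CPM at P1, P14 and P21, and was higher in both steps (log2 fold changes 0.58 and 0.61, edgeR adjusted p = 9.0e-06 and 0.000100). Müller glia markers rose along this course too, with 10 of 10 higher at P14 against P1, then 5 of 10 higher and 0 lower at P21 against P14. In P1 replicate 3, however, Ngfr had 71.4 CPM, against 74.3 and 74.6 CPM in the other P1 libraries. Ngfr had 196 to 338 CPM in injury libraries and 161 to 169 CPM at P21. Müller glia markers took 0.342 to 0.760% and 3.94 to 4.16% of counts in the same order. The part of these markers in the Ngfr level was not tested. Tnfrsf19 was higher at P14, with 16.8 ± 1.48 CPM, against 2.91 ± 0.203 CPM at P1 (SD, n = 3 each), and lower again at P21 against P14 (log2 fold change -2.43). The phosphatase receptors Ptprs and Ptprf, which bind chondroitin sulfate proteoglycans, were lower at P14 against P1 (log2 fold changes -0.84 and -0.87). Among the Nogo receptor homologues, Rtn4rl1 stayed between 143 and 226 CPM in all 13 libraries, whereas Rtn4rl2 had 0.290 and 0.256 CPM in AAV2-Cre and 1.72, 1.51 and 1.02 CPM in AAV2-GFP libraries, against 24.7 to 39.2 CPM in development libraries. All 4 reticulon genes were lower at P14 against P1, though Rtn4 was not called without scaling, with the largest log2 fold change for Rtn1 (-2.41). Of the Lingo family, Lingo2 fell with Lingo1 (log2 fold change -2.78), Lingo4 fell less (-0.56), and Lingo3 was higher (0.84).

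**Figure D3:**
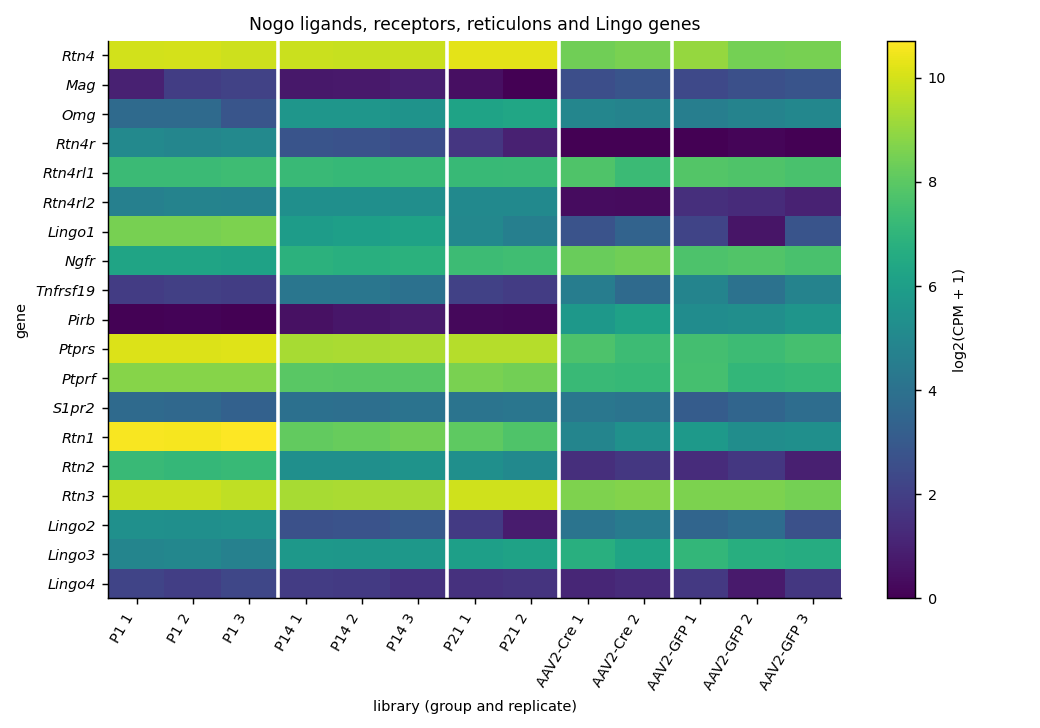
Colour gives log2(CPM + 1) of Nogo ligands, receptors, reticulons and Lingo genes (rows) in each of 13 libraries (columns, by group). Rtn4r and Rtn4rl2 are dark in the injury libraries, whereas Pirb is lighter there and is near 0 in development libraries.

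Of the 18 ligand, receptor, reticulon and Lingo genes tested between AAV2-Cre and AAV2-GFP libraries, 0 were called by edgeR's quasi-likelihood test, beside 1.62% of all genes. Of them, 4 had an unadjusted p under 0.05 and 1, Ngfr, was called by DESeq2. The share of all genes by these last measures is not given here, so these counts are not read as a result about the genes. Ngfr had 309 and 338 CPM in AAV2-Cre libraries, against 209.7, 225 and 196 CPM in AAV2-GFP libraries (log2 fold change 0.58 ± 0.14 SE, edgeR adjusted p = 0.0880). Pirb, a receptor for Nogo that immune cells also carry, had 52.0 and 69.5 CPM in AAV2-Cre libraries, against 35.9, 38.1 and 47.6 CPM in AAV2-GFP libraries (log2 fold change 0.54, edgeR adjusted p = 0.238). Development libraries had at most 0.712 CPM of Pirb, a member of a gene family of close copies whose reads may be split among them. Microglia markers took 0.550 to 0.895% of counts in the 5 injury libraries, against at most 0.0327% in development libraries, and their part in the Pirb level was not tested.

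Tsc1 (chr2:28641228-28691167, plus strand) and Tsc2 (chr17:24595816-24632630, minus strand), whose products act as a complex, differed in their course. Tsc1 had 107, 113 and 109 CPM in P1 libraries, 67.0, 73.9 and 73.9 CPM in P14 libraries, and 91.0 and 88.0 CPM in P21 libraries. Its ages did not overlap, and Tsc1 fell by 0.65 ± 0.05 (SE) log2 units at P14 against P1 (edgeR adjusted p = 2.8e-06) and was 0.38 ± 0.06 higher at P21 against P14 (edgeR adjusted p = 0.00114). Tsc2 had 188, 186 and 189 CPM in P1 libraries, 183, 189 and 173 CPM in P14 libraries, and 171 and 162 CPM in P21 libraries. Neither step passed the test for Tsc2 (log2 fold changes -0.08 and -0.07, edgeR adjusted p = 0.155 and 0.373). Its net log2 fold change of -0.15 ± 0.05 at P21 against P1 did (edgeR adjusted p = 0.0320), but not without scaling (0.190), and not without P1 replicate 1, P1 replicate 2 or P21 replicate 2 (0.0718, 0.0590 and 0.113).

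In the injury libraries both genes were lower than in any development library. Tsc1 had 36.5 and 28.2 CPM in AAV2-Cre libraries, against 38.5, 32.2 and 36.1 CPM in AAV2-GFP libraries. Tsc2 had 90.8 and 62.3 CPM in AAV2-Cre libraries, against 73.5, 78.8 and 58.8 CPM in AAV2-GFP libraries. The groups overlapped for both, and the log2 fold changes were -0.18 ± 0.20 and 0.08 ± 0.22 (SE, edgeR adjusted p = 0.732 and 0.904). Exons of Pkd1 on the opposite strand overlap 7.20% of the exon bases of Tsc2.

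Pias3 (chr3:96696384-96706070, plus strand) lay between 55.5 and 70.9 CPM in the development libraries and was lower in AAV2-Cre libraries. It had 56.3, 57.3 and 55.5 CPM in P1 libraries, 69.1, 70.8 and 70.9 CPM in P14 libraries, and 60.9 and 65.3 CPM in P21 libraries. It was 0.29 ± 0.05 (SE) log2 units higher at P14 against P1 (edgeR adjusted p = 0.000852), and its log2 fold change at P21 against P14 was -0.10 ± 0.06 (edgeR adjusted p = 0.236). In AAV2-Cre libraries Pias3 had 33.0 and 35.0 CPM, against 63.8, 60.8 and 75.2 CPM in AAV2-GFP libraries, a ratio of 0.496 (log2 fold change -1.01 ± 0.18 SE). The AAV2-GFP libraries overlapped those of P14 and P21, and both AAV2-Cre libraries lay below all other libraries. The 3 genes most like it in pattern were Upf3b, Ttc8 and Hirip3.

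Rabgef1 (chr5:130171798-130214342, plus strand) was the only member higher in every injury library than in every development library. It had 32.2, 30.3 and 32.4 CPM in P1 libraries, 35.7, 37.4 and 36.8 CPM in P14 libraries, and 34.9 and 37.3 CPM in P21 libraries. Its log2 fold change of 0.18 ± 0.06 (SE) at P14 against P1 passed the test (edgeR adjusted p = 0.0247) but not with DESeq2 (0.0621), nor without P1 replicate 2, P14 replicate 2 or P14 replicate 3 (0.0857, 0.0709 and 0.0550). AAV2-Cre libraries had 54.4 and 82.2 CPM, against 193, 129 and 134 CPM in AAV2-GFP libraries, a ratio of 0.438 (log2 fold change -1.19 ± 0.24 SE). Both AAV2-Cre libraries were below all AAV2-GFP libraries and above all development libraries. The log2 fold change was -0.89 without AAV2-Cre replicate 1 and -1.51 without AAV2-Cre replicate 2. The genes most like it in pattern were Ipmk, Prdm9 and Ccdc66.

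These values of Pias3 and Rabgef1 come from the comparison on which the study named them. Of the 5 other genes tested there, 0 were called by edgeR's quasi-likelihood test, 0 had an unadjusted p under 0.05 and 0 were called by DESeq2. For the unadjusted p and DESeq2 the share of all genes is not given here, so those counts are not read as a result about the genes. Over all 18395 genes tested, 1.62% were called by edgeR, 244 higher (1.33%) and 54 lower (0.294%), and without either AAV2-Cre library the number called lower was 0. Libraries of AAV2-Cre and AAV2-GFP did not overlap for 35.1% of all genes (19.6% higher, 15.6% lower in AAV2-Cre). Rod marker shares, given above, and bipolar cell marker shares were lower in both AAV2-Cre libraries than in all AAV2-GFP libraries. Shares of B cell, T cell, amacrine cell, and oligodendrocyte and myelin markers were higher. Bipolar cell markers took 0.0992 and 0.0843% of counts in AAV2-Cre and 0.114 to 0.146% in AAV2-GFP libraries. The part of these cell types in the levels of Pias3 and Rabgef1 was not tested.

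**Figure D4:**
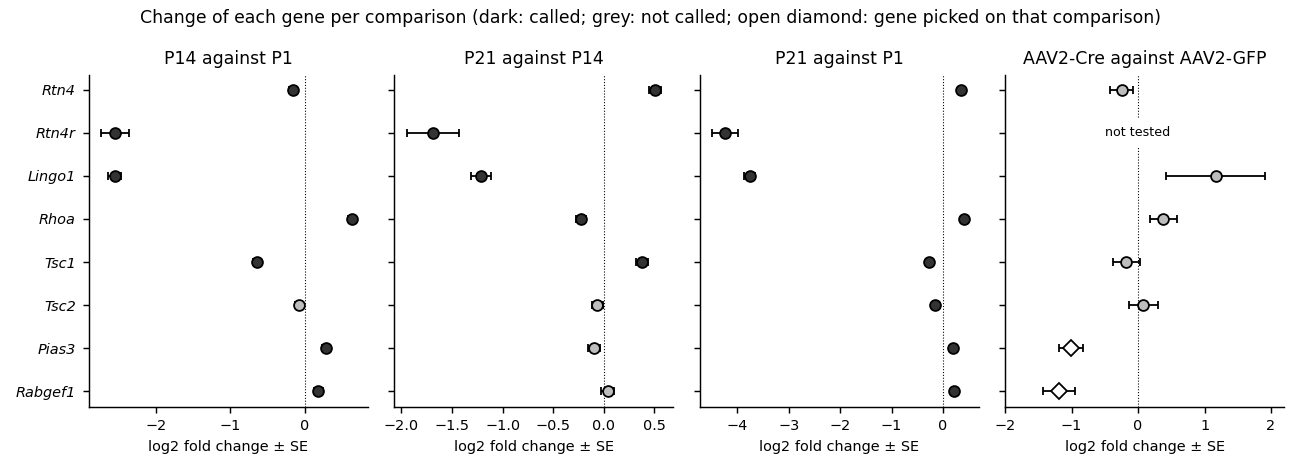
Log2 fold change with its standard error (horizontal axis, a separate scale per panel) of each gene in 4 comparisons; dark points passed the test, grey points did not, and open diamonds mark Pias3 and Rabgef1 in the comparison that chose them. The leftmost points are Rtn4r and Lingo1 in the comparisons of ages.

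Between the datasets age, genotype, injury, virus and dataset change together, so their levels are only set side by side. Levels of 6 of the 8 genes did not overlap between injury and development libraries, beside 47% of 23844 genes (22.5% higher, 24.5% lower in injury libraries). Rtn4, Rtn4r, Lingo1, Tsc1 and Tsc2 were lower in the injury libraries, and Rabgef1 was higher. Rhoa, with 170.5 to 321 CPM in injury and 122 to 199.6 CPM in development libraries, and Pias3, with 33.0 to 75.2 CPM and 55.5 to 70.9 CPM in the same order, overlapped.

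Genes around these members were described by list, and each count at P14 against P1 stands beside 33.6% of all genes called higher and 33.6% called lower. Of 27 RhoA signaling genes, 9 were higher and 16 lower at P14 against P1 (median log2 fold change -0.36, against -0.01 over all genes). Rhoc and Myh9, a small GTPase and a nonmuscle myosin heavy chain, were higher (1.35 and 2.32), and Dpysl2, the axonal protein CRMP2, and the cofilin kinase gene Limk2 were lower (-1.50 and -1.17). Of 41 TSC and mTORC1 genes, 14 were higher and 16 lower, including higher Sesn2 and Sesn1, whose products restrain mTORC1 (1.61 and 1.04), and lower Prkaa2, a catalytic subunit of AMPK (-2.06). Of 19 PIAS and SUMO genes, 8 were higher and 7 lower at P14 against P1, including higher Stat3 (0.88) and lower Sae1, a subunit of the SUMO-activating enzyme (-0.75). Of 23 Rab5 endosome genes, 6 were higher and 13 lower, with Rin2 and Appl2 higher (1.36 and 1.54) and the recycling GTPases Rab4a and Rab11a lower (-1.44 and -1.04).

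Of 11 other repressors of axon growth, 4 were higher and 5 lower at P14 against P1, beside 33.6% of all genes in each direction. Klf4, a transcription factor that limits RGC axon growth, averaged 5.08, 39.0 and 6.26 CPM at P1, P14 and P21, and Socs3, an inhibitor of JAK-STAT signalling, averaged 16.6, 101 and 32.6 CPM at the same ages. Both were called higher at P14 against P1 (log2 fold changes 2.91 and 2.57) and lower at P21 against P14 (-2.58 and -1.57). Pericyte markers took the same course, with 8 of 8 higher and then 8 of 8 lower (0.0110 to 0.0354% of counts at P1, 0.422 to 0.474% at P14 and 0.0607 to 0.0904% at P21). Microglia markers did so too (10 of 10 higher, then 10 of 10 lower), and 8 of 8 endothelial markers were higher and then 5 of 8 lower. Their part in the levels of Klf4 and Socs3 was not tested. Of the RhoA and the TSC and mTORC1 genes, 0 were called between AAV2-Cre and AAV2-GFP libraries by edgeR, beside 1.62% of all genes. By unadjusted p under 0.05 there were 11 and 6, and by DESeq2 5 and 1. The share of all genes by these 2 measures is not given here, so these counts are not read as a result about the lists. Median log2 fold changes were -0.03 and -0.02, against -0.03 over all genes.

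**Figure D5:**
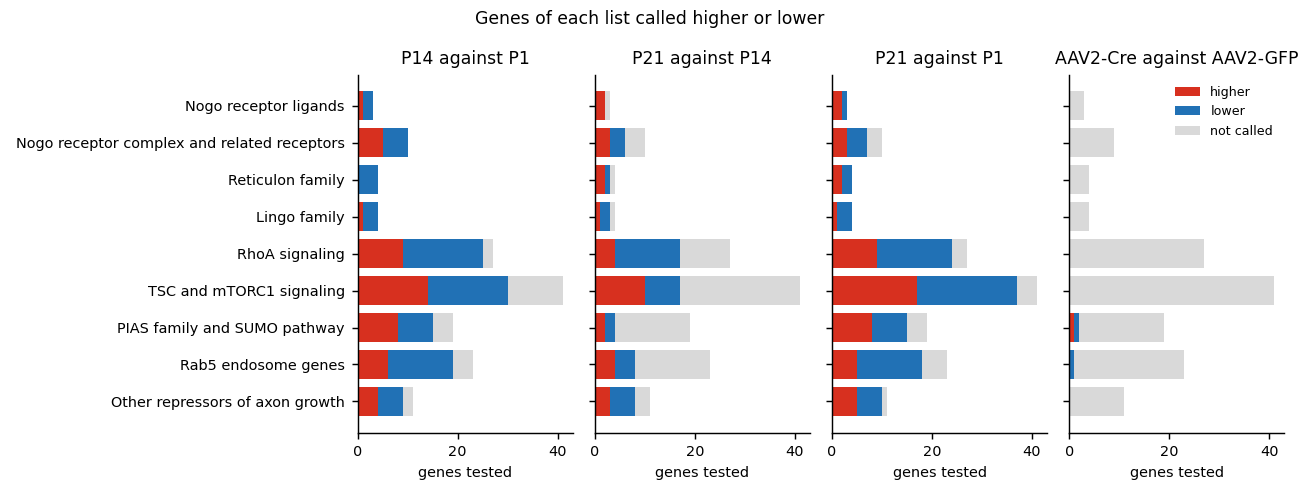
Genes of each list (rows) called higher (red), lower (blue) or not called (grey) in 4 comparisons; bar length is the number of genes tested. Calls in both directions fill most bars at P14 against P1, while between AAV2-Cre and AAV2-GFP libraries nearly all bars are grey and the calls lower are Pias3 and Rabgef1, which were picked on that comparison.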

How the data were processed

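Whole counts per gene, not normalized, were deposited for 13 libraries. Per the labels, the authors used FastQC 0.11.9, Trimmomatic 0.39, the aligner HISAT2 2.2.1 with the GRCm38 (mm10) genome, and featureCounts of Subread 2.0.3. Gene symbols came from GENCODE by Ensembl ID (52403 of 52550 IDs). In R 4.3.3, edgeR 4.0.16 (TMM, filterByExpr, glmQLFit and glmQLFTest) was fitted separately to the 5 injury and the 8 development libraries, and genes with a Benjamini-Hochberg adjusted p under 0.05 over all genes tested were called. The script was tested on simulated data. The biological coefficient of variation was 0.340 for injury and 0.109 for development libraries. Pattern likeness used group means of log2 CPM (prior count 2), and candidate genes had to average at least 3, a limit not set for the members. Named genes were the members, Kdm6a, the ligand, receptor, reticulon and Lingo lists, called genes with the smallest p of the other lists, and the 3 genes nearest each member, though several of these genes are omitted for brevity or not reported here. DESeq2 1.42.0, other scalings and filters, a joint fit, a replicate block and leaving out each library were tried. Members and lists were chosen with earlier results of these data known. The limit given for a count of 0 covers counting error only.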

Additional observations from a re-analysis of the deposited data

How the results depend on the processing

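Between AAV2-Cre and AAV2-GFP libraries, the number of genes called higher (244) became 758 with DESeq2, 969 without the low-count filter, 378 with at least 10 counts in every library and 1433 with all 13 libraries in 1 fit, and the number called lower (54) became 488, 543, 152 and 1071 under the same settings; the cause was not tested. Leaving out 1 library gave 5 to 253 genes higher and 0 to 31 lower, with 0 lower without either AAV2-Cre library. At P21 against P14, the genes called higher (3047) and lower (4024) became 627 and 1997 in the joint fit, and leaving out 1 library gave 1836 to 3751 higher, the lowest without P21 replicate 2. A replicate block lowered the AAV2-Cre calls to 23 genes lower. Same-numbered libraries had correlations of deviations from -0.187 to 0.0994. With so few libraries per group, these values cannot show whether same-numbered libraries were prepared together. Without scaling, the median log2 fold change of all genes at P14 against P1 moved to 0.11. No member changed direction where it was called. Member calls were lost in 32 combinations of gene, comparison and setting, for Rtn4, Lingo1, Rhoa, Tsc1, Tsc2, Pias3 and Rabgef1 but not Rtn4r, and 11 of these were in the joint fit. The Rabgef1 log2 fold change between AAV2-Cre and AAV2-GFP ran from -1.51 to -0.89 when libraries were left out.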
